A study of Mus musculus with 16 samples.

Results

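The 9 genes described here encode the Fc gamma receptors of the mouse and the phagocyte NADPH oxidase. They were Fcgr1, Fcgr2b, Fcgr3 and Fcgr4, the shared signalling chain Fcer1g, and the oxidase genes Cybb, Cyba, Ncf1 and Ncf4. They were taken by symbol from the liver and kidney expression tables, each of which lists 32989 genes. Every symbol matched 1 row in each organ. All 9 passed the filter on low values in both organs, among 12835 genes in the liver and 14452 in the kidney.

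Fc gamma receptors bind the constant part of IgG and so tell a cell that a particle or an immune complex carries antibody. Fcgr1, Fcgr3 and Fcgr4 are activating receptors that signal through the Fc receptor gamma chain encoded by Fcer1g, whereas Fcgr2b is the inhibitory receptor and carries its own inhibitory motif. Macrophages, monocytes and neutrophils carry activating receptors, B cells carry Fcgr2b, and in the liver Fcgr2b is also abundant on the sinusoidal endothelium, where it clears small immune complexes. The phagocyte oxidase makes superoxide when such receptors are engaged. Cybb and Cyba encode the catalytic and the companion subunit of its membrane cytochrome, and Ncf1 and Ncf4 encode cytosolic subunits that join it on activation.

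Liver and kidney were taken from the same 8 male C57BL/6J mice, all wild type. The 4 LD-conditioned mice (L63, L65, L86 and L104) lived under a fixed cycle with light from 8:00 to 20:00, and the 4 ADV-conditioned mice (A75, A91, A94 and A115) lived under a cycle whose phase was advanced by 8 h every 4 days. Both conditions lasted 85 weeks and the mice were aged 97 weeks. Poly(A) RNA of each organ of each mouse was sequenced, which gave 16 libraries, 4 per organ and condition, and the question was what the long-term phase advance did to gene expression. Values are FPKM, fragments per kilobase of exon scaled to the total of the library, so levels of different genes can be set side by side. The sequencing was carried out by 2 providers on different instruments, and because no source used here says which library came from which, an effect of the provider cannot be told apart from the groups. The tissues are whole organs of male mice, and in such bulk samples a change in the number of cells of a type and a change in RNA per cell cannot be told apart.

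The libraries held 21092501 to 24285055 fragments on genes in the liver and 15688495 to 18043306 in the kidney. The liver libraries of the conditions did not overlap, at 22501280 fragments or more under LD and at most 21721621 under ADV, whereas those of the kidney overlapped. The summed level of 8 hepatocyte markers was 60731 to 74199 FPKM in the livers, and that of 7 proximal tubule markers was 518 to 2497 FPKM in the kidneys. 2 mice stood apart. A94 was the highest of the 8 mice for 49.7% of the genes tested in the liver and for 26.2% in the kidney, where A75 was the highest for 28.1%. In the kidney of A115, 314 of the 14452 genes lay at least 8-fold below the lowest of the other 7 kidneys, a count that was 0 for each of the other 15 libraries. The proximal tubule marker sum was 518 FPKM in that kidney against 1563 to 1815 FPKM in the LD kidneys, and mitochondrial transcripts made up 33.8% of its fragments on genes against 15.7 to 18.02% in the LD kidneys. The other 3 ADV kidneys lay outside the LD range on the other side, at 10.7% in A75, 13.1% in A91 and 9.43% in A94.

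In the mm10 annotation of the table, 4 of the genes lie close together on chromosome 1. They are Fcgr2b at chr1:170960558-170976071 on the minus strand, Fcgr4 at chr1:171018926-171029761 on the plus strand, Fcgr3 at chr1:171051169-171059403 on the minus strand and Fcer1g at chr1:171229572-171234349 on the minus strand. Fcgr1 lies at chr3:96282909-96293969, Ncf1 at chr5:134220259-134229625, Cyba at chr8:122424771-122432940, Ncf4 at chr15:78244811-78262580 and Cybb at chrX:9435254-9469324. None of the 9 overlapped another gene of the table.

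Fcgr2b and Fcgr3 are nearly the same over their extracellular part, which matters here because reads with a low mapping quality had been removed before counting. Over 509 aligned bases of coding sequence, Fcgr2b and Fcgr3 were identical at 491, or 96.5%. Across the whole GENCODE transcripts the longest identical run was 129 bases, and 44 of the 1248 windows of 100 bases in Fcgr3 (3.53%) also occurred in Fcgr2b. No window of 100 bases was shared with Fcgr1 or Fcgr4, and their longest identical runs with the others were 13 or 14 bases. The following stretches of 120 coding bases, bases 235 to 354 of Fcgr2b and 220 to 339 of Fcgr3 counted from the start codon, contain 4 differing bases, printed in capitals. How many reads of either gene were lost or exchanged in this part was not tested. The stretch is printed to show how few bases tell the inhibitory from the activating receptor.
Fcgr2b: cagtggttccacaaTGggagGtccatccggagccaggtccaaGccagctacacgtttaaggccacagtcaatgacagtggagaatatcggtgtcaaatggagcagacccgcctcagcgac
Fcgr3: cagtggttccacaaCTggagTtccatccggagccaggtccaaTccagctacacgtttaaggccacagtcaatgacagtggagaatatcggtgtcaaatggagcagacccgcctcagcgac

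Promoter sequences were taken from RefSeq on GRCm38.p6, from 250 bases before to 50 bases after the start of the gene, and 8 of the 9 genes matched. They were searched on both strands for the core of the myeloid factor PU.1, spelled GAGGAA, and for the interferon gamma activated site (GAS), spelled TTCNNNGAA. A PU.1 core occurred in 4 of the 8 promoters, against 28.3% of 32851 promoters of the same length, and a GAS occurred in 2 of the 8, against 8.30%. Fcgr1, Fcgr3, Fcgr4 and Cybb held the PU.1 core, which in Cybb lay within the 50 bases after the start. Fcgr1 and Ncf1 held the GAS. The promoters of the 3 activating receptors and of Cybb are printed because they held the PU.1 core, and that of Fcgr2b because it held neither motif. Capitals mark the matches, none of which overlap each other and which describe these letters and do not show that a factor binds.
Fcgr1, chr3:96293920-96294219, minus strand: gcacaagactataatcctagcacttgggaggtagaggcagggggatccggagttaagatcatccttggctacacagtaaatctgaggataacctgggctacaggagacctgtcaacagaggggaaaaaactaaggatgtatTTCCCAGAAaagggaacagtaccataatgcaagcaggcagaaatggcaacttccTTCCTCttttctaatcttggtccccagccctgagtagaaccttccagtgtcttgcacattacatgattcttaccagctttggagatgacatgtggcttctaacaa
Fcgr3, chr1:171059354-171059653, minus strand: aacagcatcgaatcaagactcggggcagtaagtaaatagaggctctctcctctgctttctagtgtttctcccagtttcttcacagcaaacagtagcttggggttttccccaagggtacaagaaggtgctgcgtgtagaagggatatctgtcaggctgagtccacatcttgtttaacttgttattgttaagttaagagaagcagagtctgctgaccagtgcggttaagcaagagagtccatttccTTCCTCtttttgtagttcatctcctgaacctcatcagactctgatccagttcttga
Fcgr4, chr1:171018676-171018975, plus strand: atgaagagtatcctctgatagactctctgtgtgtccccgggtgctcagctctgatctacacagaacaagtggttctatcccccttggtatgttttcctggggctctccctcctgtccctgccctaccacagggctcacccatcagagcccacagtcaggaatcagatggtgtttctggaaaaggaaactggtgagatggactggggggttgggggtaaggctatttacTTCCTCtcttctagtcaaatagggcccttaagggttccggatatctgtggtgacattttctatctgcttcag
Cybb, chrX:9469275-9469574, minus strand: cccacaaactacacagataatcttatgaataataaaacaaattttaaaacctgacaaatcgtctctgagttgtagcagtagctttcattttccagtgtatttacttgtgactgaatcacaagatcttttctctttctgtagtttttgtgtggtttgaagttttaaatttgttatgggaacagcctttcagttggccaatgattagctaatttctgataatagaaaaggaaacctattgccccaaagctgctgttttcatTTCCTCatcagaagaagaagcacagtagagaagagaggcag
Fcgr2b, chr1:170976022-170976321, minus strand: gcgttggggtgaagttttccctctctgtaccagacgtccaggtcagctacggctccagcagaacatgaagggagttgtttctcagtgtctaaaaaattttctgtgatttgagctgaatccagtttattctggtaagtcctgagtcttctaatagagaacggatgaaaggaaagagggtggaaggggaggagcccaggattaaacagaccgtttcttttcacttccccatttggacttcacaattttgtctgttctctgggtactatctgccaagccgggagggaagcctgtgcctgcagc

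In the livers of LD-conditioned mice, Fcgr2b was the most abundant of the 9 transcripts, at 30.1 ± 1.12 FPKM (SD, n = 4). Fcer1g followed at 8.23 ± 0.115 FPKM, then Fcgr3 at 7.04 ± 1.33 FPKM and Cyba at 6.79 ± 0.747 FPKM, with Fcgr3 overlapping both of the others, which did not overlap each other. Fcgr4 (3.90 ± 0.499 FPKM) and Cybb (3.07 ± 0.544 FPKM) overlapped each other, Ncf1 stood alone at 1.74 ± 0.580 FPKM, and Fcgr1 (0.866 ± 0.258 FPKM) and Ncf4 (0.712 ± 0.162 FPKM) closed the order with overlapping ranges. In the kidneys of LD-conditioned mice the order changed at its head, where Cyba stood at 212 ± 30.3 FPKM, above Fcgr2b at 23.5 ± 2.03 FPKM. Fcer1g came next at 12.998 ± 6.92 FPKM, with a range that reached into that of Fcgr2b. The 6 others ran from Fcgr3 at 7.46 ± 4.71 FPKM down to Ncf4 at 0.744 ± 0.410 FPKM, and only the step from Fcgr3 to Cybb separated neighbours without overlap. The genes rested on 20 to 1651 fragments per library in the liver and on 11 to 5581 in the kidney, with Ncf4 the lowest in both.

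**Figure D1:**
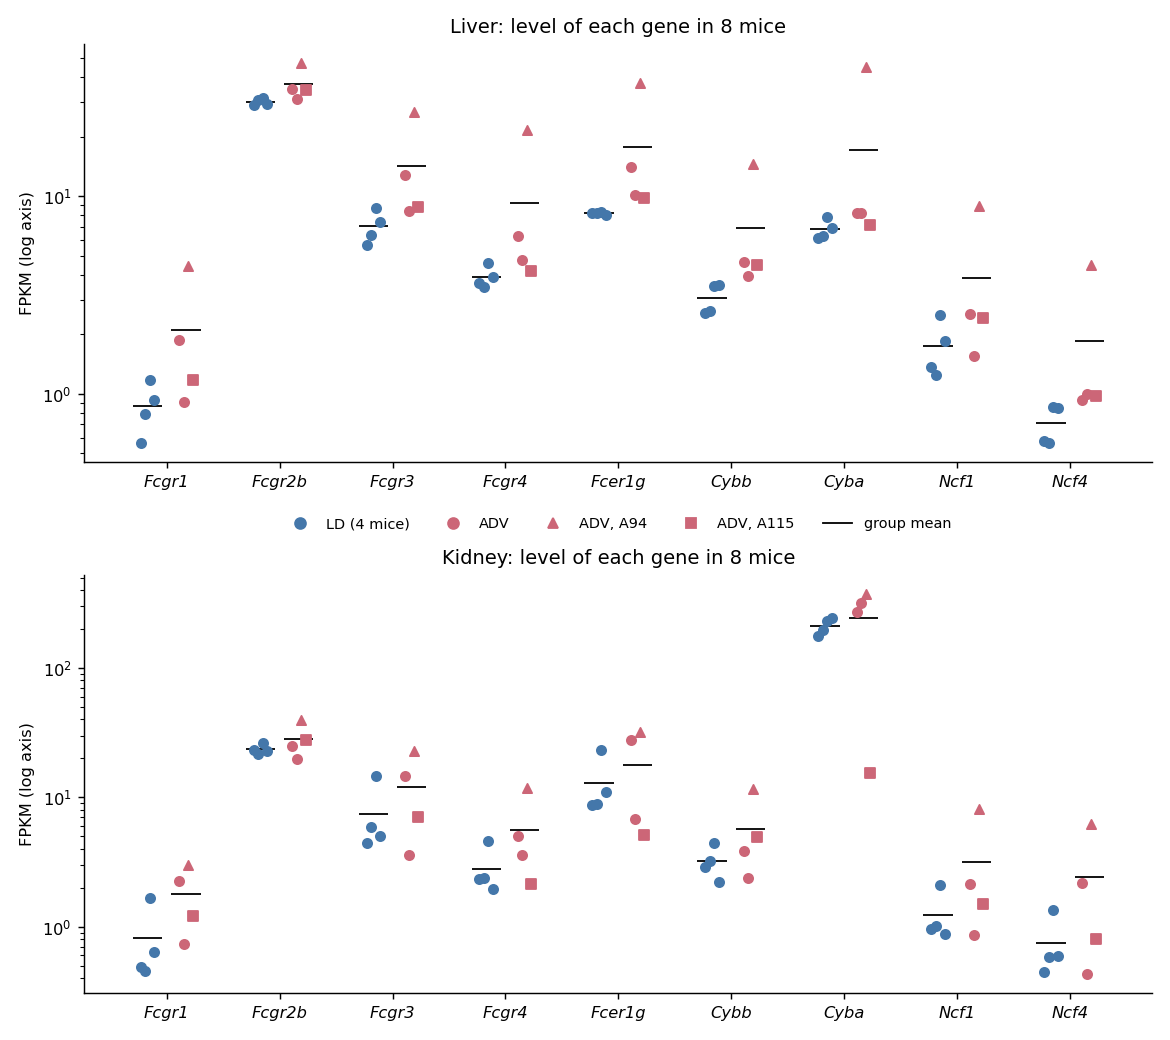
Level of each of the 9 genes in FPKM on a log axis, for 4 LD (blue) and 4 ADV (red) mice in liver (upper panel) and kidney (lower panel). Triangles mark A94, squares A115 and lines the group means. A94 was the highest of the 8 mice for all 9 genes in both organs, and the kidney of A115 held Cyba at 15.3 FPKM.

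In the liver all 9 genes had a higher mean in ADV-conditioned than in LD-conditioned mice, but none passed the test across all genes. With limma on log2(FPKM + 0.1) and Benjamini-Hochberg adjustment, 0 of the 9 had an adjusted p under 0.05, and the background was 0.00779% of all genes tested. At an unadjusted p under 0.05, 4 of the 9 (Fcgr1, Fcgr3, Fcer1g and Cybb) were higher, against a background of 8.65%. This count was 0 without L63 and 0 without L65 (background 5.54% and 6.17%), 2 without L104 (5.85%) or A75 (8.74%), 5 without A94 (8.80%) and 6 without A91 (13.4%). With limma-voom on fragments recovered from the FPKM, 0 of the 9 passed the adjusted test and 2 were higher by the unadjusted one (background 8.07%). All 9 log2 fold changes were above 0, as were 65.7% of those of all genes, and their median was 0.87 beside 0.096 over all genes tested. A single mouse carried a large part of this size, since the median was 0.42 without A94 (0.025 over all genes).

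The inhibitory receptor Fcgr2b had the smallest log2 fold change of the 9 in the liver. Its liver levels were 29.1, 30.6, 31.5 and 29.3 FPKM in L63, L65, L86 and L104, and 34.7, 31.0, 47.2 and 34.6 FPKM in A75, A91, A94 and A115. Of the ADV-conditioned mice 3 lay above every LD-conditioned mouse, and A91 lay inside the LD range. The log2 fold change was 0.27 (SE 0.13, adjusted p = 0.440 with limma), and it was 0.15 without A94.

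Fcgr3, the low-affinity activating receptor, measured 5.65, 6.37, 8.72 and 7.42 FPKM in the LD livers and 12.8, 8.42, 26.6 and 8.86 FPKM in the ADV livers, in the same order of mice. 3 of the 4 ADV-conditioned mice lay above all LD-conditioned mice. The log2 fold change was 0.85 (SE 0.33, adjusted p = 0.385 with limma; exact two-sided permutation p = 0.057) and the log2 fold change was 0.50 without A94. Fcgr4, an activating receptor of the mouse for IgG of certain subclasses, measured 3.63, 3.47, 4.6 and 3.92 FPKM in the LD livers and 6.3, 4.78, 21.6 and 4.19 FPKM in the ADV livers, so that A115 lay within the LD range. Its log2 fold change was 0.88 (SE 0.44, adjusted p = 0.451 with limma), and 0.36 without A94. Fcgr1, the high-affinity receptor for IgG, measured 0.562, 0.793, 1.18 and 0.932 FPKM in the LD livers and 1.87, 0.912, 4.46 and 1.18 FPKM in the ADV livers. Its groups overlapped, with 2 of the 4 ADV-conditioned mice above all LD-conditioned mice, and the log2 fold change was 0.97 (SE 0.43, adjusted p = 0.424 with limma) or 0.54 without A94.

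The gamma chain Fcer1g had the narrowest LD group of the 9. Its liver levels were 8.26, 8.26, 8.33 and 8.06 FPKM under LD and 14.1, 10.1, 37.2 and 9.77 FPKM under ADV, and the groups did not overlap. The log2 fold change was 0.87 (SE 0.37, adjusted p = 0.411 with limma), the exact two-sided permutation p was 0.029, which is the smallest that 4 mice against 4 can give, and without A94 the log2 fold change was 0.44.

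Among the oxidase genes, Cybb measured 2.57, 2.62, 3.53 and 3.55 FPKM in the LD livers and 4.63, 3.93, 14.5 and 4.50 FPKM in the ADV livers, without overlap. Its log2 fold change was 0.93 (SE 0.37, adjusted p = 0.390 with limma; exact permutation p = 0.029), and 0.50 without A94. Ncf4 measured 0.580, 0.562, 0.856 and 0.848 FPKM under LD and 0.932, 1, 4.51 and 0.970 FPKM under ADV, again without overlap, though the lowest ADV value lay close to the highest LD value. The log2 fold change of Ncf4 was 0.95 (SE 0.46, adjusted p = 0.445 with limma; exact permutation p = 0.029), and 0.42 without A94. Ncf1 measured 1.36, 1.24, 2.51 and 1.85 FPKM under LD and 2.54, 1.56, 8.88 and 2.43 FPKM under ADV, and its groups overlapped (log2 fold change 0.83, SE 0.47, adjusted p = 0.480 with limma, and 0.33 without A94). Cyba rested most on 1 mouse. It measured 6.16, 6.30, 7.81 and 6.88 FPKM under LD and 8.20, 8.18, 45 and 7.18 FPKM under ADV, and its log2 fold change of 0.84 (SE 0.51, adjusted p = 0.504 with limma) was 0.21 without A94. In all, 3 of the 9 genes had every ADV liver above every LD liver, against 6.94% of all genes tested. The exact permutation p in the liver was 0.057 for Fcgr2b, Fcgr3, Fcgr4 and Cyba, 0.143 for Fcgr1 and 0.171 for Ncf1. In the kidney the lowest exact permutation p was 0.114, that of Fcgr1.

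**Figure D2:**
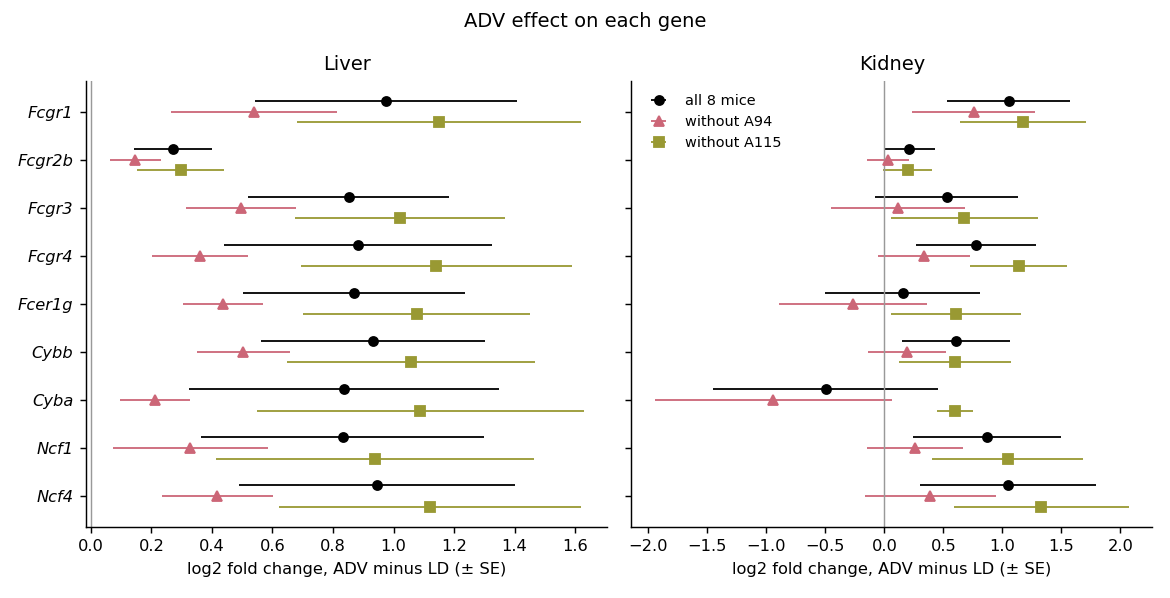
Log2 fold change, ADV minus LD, of each gene in liver (left) and kidney (right), with its SE from limma, for all 8 mice (circles), without A94 (triangles) and without A115 (squares). In the liver every value lay above 0 and was smaller when A94 was left out. In the kidney Cyba stood at -0.50 with all mice and at 0.60 without A115.

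Markers of several cell types were high in A94 as well. In the liver the summed level of 14 macrophage markers was 197 to 259 FPKM under LD, 269 to 306 FPKM in the 3 other ADV livers and 905 FPKM in A94, and 14 of the 14 macrophage markers had a log2 fold change above 0. The 8 B cell markers summed to 69.2 FPKM there and to 1.51 to 3.98 FPKM in the other 7 livers, the 12 neutrophil markers to 121 FPKM against 5.36 to 17.9 FPKM, the 8 T cell markers to 16.4 FPKM against 1.17 to 2.31 FPKM, the 10 monocyte markers to 298 FPKM against 109 to 172 FPKM, and 5 plasma cell markers to 722 FPKM against 61.8 to 92.8 FPKM. Outside A94 the last 2 sums were mostly 1 gene each, Fn1 at 94.7 to 151.5 FPKM and Sdc1 at 55.9 to 88.9 FPKM, and both genes are also expressed by hepatocytes. Kupffer cell markers were present in every liver, with Clec4f at 20.3 to 27.6 FPKM under LD and 28.5 to 97.5 FPKM under ADV. Vsig4, at 17.8 to 23.9 and 25.8 to 75.1 FPKM, also had groups without overlap. The groups overlapped for Timd4 (1.12 to 2.52 and 1.54 to 2.54 FPKM) and Cd5l (32.1 to 46.2 and 45.8 to 195.7 FPKM). They overlapped as well for Marco (2.25 to 12.3 and 4.29 to 11.7 FPKM), which was highest in L86. The part of these cells in the levels of the 9 genes was not tested.

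In the kidney 8 of the 9 genes had a log2 fold change above 0, against 46.4% of all genes tested, and their median was 0.61 beside -0.024 over all genes. With limma 0 of the 9 had an adjusted p under 0.05 (background 0%), 0 of the 9 were higher at an unadjusted p under 0.05 (background 1.75%, and 2 of the 9 beside 29.5% without A115), and in 0 of the 9 did every ADV kidney lie above every LD kidney (background 0.962%). With limma-voom 0 of the 9 passed at either threshold (background 0% adjusted and 1.40% unadjusted and higher). The median was 0.19 without A94 and 0.94 without A91. 1 LD-conditioned mouse, L86, stood above the other 3 LD-conditioned mice for 8 of the 9 genes, Cyba being the exception.

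Fcer1g measured 8.76, 8.95, 23.3 and 11 FPKM in the kidneys of L63, L65, L86 and L104 and 27.7, 6.79, 32.0 and 5.12 FPKM in those of A75, A91, A94 and A115. The ADV group thus held both the 2 highest and the 2 lowest values of the 8, and the log2 fold change of 0.16 (SE 0.65) became -0.26 without A94 and 0.61 without A115. Fcgr3 had overlapping groups, with only A94 above every LD kidney and A91 below every one, at 4.46, 5.87, 14.5 and 5.05 FPKM under LD and 14.5, 3.61, 22.9 and 7.01 FPKM under ADV (log2 fold change 0.53, SE 0.61, and 0.11 without A94). Fcgr1 had 0.489, 0.452, 1.67 and 0.640 FPKM under LD and 2.24, 0.733, 3 and 1.21 FPKM under ADV. Its log2 fold change was 1.05 (SE 0.52, adjusted p = 0.9999 with limma) and its groups overlapped through L86. Without A94 it was 0.76. Fcgr2b measured 23.2, 21.5, 26.3 and 23.0 FPKM under LD and 25.1, 19.7, 39.4 and 27.9 FPKM under ADV, with a log2 fold change of 0.21 (SE 0.21) that was 0.033 without A94. Fcgr4 measured 2.32, 2.39, 4.56 and 1.97 FPKM under LD and 5.04, 3.59, 11.7 and 2.14 FPKM under ADV (log2 fold change 0.78, SE 0.51, and 0.34 without A94 or 1.14 without A115).

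Cybb measured 2.89, 3.24, 4.42 and 2.23 FPKM in the LD kidneys and 3.86, 2.38, 11.5 and 4.89 FPKM in the ADV kidneys, a log2 fold change of 0.61 (SE 0.46), or 0.19 without A94. Ncf1 ranged from 0.881 to 2.08 FPKM under LD and from 0.862 to 8.08 FPKM under ADV (log2 fold change 0.87, SE 0.63, and 0.26 without A94), and Ncf4 from 0.446 to 1.35 FPKM under LD and from 0.431 to 6.24 FPKM under ADV (log2 fold change 1.05, SE 0.74, and 0.39 without A94). For both, the highest ADV value was that of A94 and the lowest that of A91, below every LD-conditioned mouse. The macrophage marker sum was high in L86, A75 and A94 and lowest in A115, where Cybb lay above every LD kidney. That library departed from the others by transcript GC content, which is described below together with the place of Cybb. The 14 macrophage markers summed to 57.7, 70.4, 125.8 and 72.6 FPKM in the LD kidneys and to 218, 76.4, 445 and 42.1 FPKM in the ADV kidneys, with Clec4f at 0 in all 8. The 12 neutrophil markers summed to 1.72 to 3.98 FPKM under LD and to 9.08, 2.51, 27.7 and 3.57 FPKM in A75, A91, A94 and A115. The neutrophil genes Mpo and Camp were at 0 in all 8 kidneys. In the kidney of A94 the B cell, plasma cell and T cell sums were 65.2, 507 and 33.8 FPKM. In the other kidneys they were 1.39 to 5.70, 14.4 to 69.9 and 3.13 to 7.32 FPKM. The part of these cells in the kidney values was not tested.

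Cyba behaved unlike the other 8 in the kidney. Its levels were 177.3, 196.7, 232.3 and 242.2 FPKM under LD and 272.1, 316.4, 376.2 and 15.3 FPKM under ADV, so that 3 ADV kidneys lay above every LD kidney and A115 lay far below all 7 others. The log2 fold change was -0.50 (SE 0.95, adjusted p = 0.9999 with limma). Without A115 it was 0.60 (SE 0.15, adjusted p = 0.032 with limma), and Cyba was then the 1 member called, in a fit that called 2724 of 14475 genes and in which the median gene stood at 0.20. With A115 left out and the libraries also scaled by median ratios, it was 0.40 with an adjusted p of 0.095 from limma. The kidney of A115 differed from the others by the GC content of the transcripts. Relative to the median of the other 7 kidneys, its genes of under 45% GC had a median log2 difference of 0.43 and those of 60% GC or more one of -2.42. This contrast of low against high GC was 2.84 in A115 and lay between -0.22 and 0.20 in the livers. The contrast also separated the other kidneys by condition, at 0.025 to 0.55 in the 4 LD kidneys and at -0.97, -0.69 and -0.83 in A75, A91 and A94. The Cyba transcript has 59.3% GC and lay at -3.98 on this scale, below the median of -1.82 for the class of 55 to 60% GC. Fcer1g (52.5% GC) lay at -1.09, near the median of its class at -0.95, whereas Ncf4 (55.7% GC) lay at 0.37 and Ncf1 (53.3% GC) at 0.52. Cybb (42.4% GC) lay at 0.58, near the median of 0.43 for its class. Fcgr1 (51.6% GC) and Fcgr2b (50.1% GC) lay at 0.66 and 0.26. Fcgr3 (49.2% GC) lay at 0.25 and Fcgr4 (48.2% GC) at -0.72, beside a median of -0.12 for 45 to 50% GC. In the class of 55 to 60% GC, which holds Cyba, the median gene stood at 0.61, 0.31 and 0.55 in A75, A91 and A94 and at -0.30, -0.21, 0.029 and -0.077 in L63, L65, L86 and L104. The call of Cyba without A115 thus goes with a shift of its whole GC class in the same 3 ADV kidneys. The part of GC content in the values of A115, and in those of Cyba in the other ADV kidneys, was not tested.

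**Figure D3:**
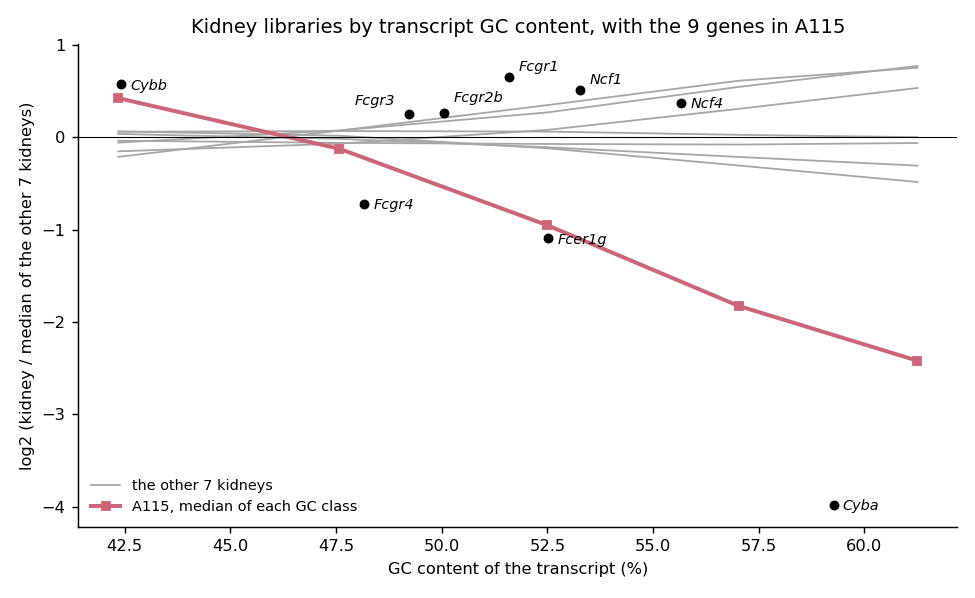
Log2 of each kidney library over the median of the other 7, as the median of the genes in 5 classes of transcript GC content (red, A115; grey, the other 7 kidneys), with the 9 genes in A115 as black points. The line of A115 runs from 0.43 at the lowest to -2.42 at the highest GC class, and Cyba lies at -3.98.

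The ADV effect was not shown to differ between the organs for any of the 9 genes. In the limma interaction term over all 16 libraries, the kidney effect minus the liver effect ran from -1.33 (Cyba, and -0.49 without A115) to 0.10 (Ncf4) on the log2 scale, and 0 of the 9 had an adjusted p under 0.05 (background 0% of 12319 genes, 426 of which had an unadjusted p under 0.05). None of the 9 had an unadjusted p under 0.05, and none was called in any of the other settings tried, including the fit without A115, which called 458 of 12316 genes. With the mouse as a replicate block the count was also 0.

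Between the organs themselves Cyba differed most. Its mean was 229 FPKM in the kidney and 12.0 FPKM in the liver, a 19.3-fold difference on the log2(FPKM + 0.1) scale (log2 4.27, adjusted p = 7.4e-06 with limma), and the kidney was higher in 8 of 8 mice, A115 included. Cybb, its partner in the membrane cytochrome, had 4.43 FPKM in the kidney and 4.97 FPKM in the liver (log2 difference -0.13, adjusted p = 0.719 with limma). The ratio of Cyba to Cybb was 1.94 to 2.41 in the LD livers and 52.6 to 108 in the LD kidneys. Fcgr2b was lower in the kidney in 8 of 8 mice (log2 -0.39, adjusted p = 0.012 with limma), and this call was lost with mitochondrial genes left out (log2 -0.25, adjusted p = 0.087). These 2 of the 9 genes were called without the mouse in the model, beside a background of 75.1% of all genes. With the mouse as a fixed replicate block 4 of the 9 were called, beside 76.3% of all genes, the others being Fcgr4 (log2 -0.58, adjusted p = 0.0039 with limma) and Ncf1 (log2 -0.47, adjusted p = 0.013), each lower in the kidney in 8 of 8 mice. The median gene was 0.75 higher in the kidney on the log2 scale, and relative to it Fcgr2b stood at -1.14, Fcgr4 at -1.33, Ncf1 at -1.23 and Cyba at 3.52. Scaling by median ratios brought the median gene to 0.033 and called 7 of the 9, all but Fcer1g and Ncf4, with 6 lower and Cyba higher in the kidney. That share is near the 65.6% of all genes called with this scaling.

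The make-up of the receptor transcripts can be read within a library, free of scaling between libraries. In the LD livers Fcgr2b made up 68.5 to 74.7% of the summed FPKM of the 4 Fc gamma receptors, with means of 16.7% for Fcgr3, 9.28% for Fcgr4 and 2.04% for Fcgr1. In the ADV livers the share of Fcgr2b was lowest in A94 at 47.3%, followed by 62.4% in A75, while A91 (68.7%) and A115 (70.8%) lay within the LD range. The ratio of activating receptors (Fcgr1, Fcgr3 and Fcgr4) to Fcgr2b was 0.338, 0.347, 0.460 and 0.418 in the LD livers and 0.602, 0.456, 1.11 and 0.412 in the ADV livers, and only in A94 did the activating receptors outweigh the inhibitory one. The mean log2 ratio was 0.62 higher under ADV, and 0.32 higher without A94. Leaving Fcgr3 out of the activating sum, because of its near identity to Fcgr2b, the mean log2 ratio was -2.67 ± 0.185 in the LD livers and -2.02 ± 0.813 in the ADV livers (SD, n = 4), a difference of 0.65 that was 0.26 without A94.

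In the kidney the ratio was 0.313, 0.405, 0.785 and 0.333 under LD and 0.867, 0.401, 0.956 and 0.371 under ADV. L86, A75 and A94 stood above the other 5 kidneys, and the mean log2 ratio was 0.47 higher under ADV with an SD between mice of 0.67. The ratio of Fcer1g to the sum of the 3 activating receptors was 0.697 ± 0.019 in the ADV livers (SD, n = 4) and 0.712 ± 0.119 in the LD livers (0.575 to 0.839). The Fcer1g level ranged from 9.77 to 37.2 FPKM among the ADV livers, where the ratio was narrow, and from 8.06 to 8.33 FPKM among the LD livers, where it was wide. In the kidney that ratio was 1.03 to 1.44 under LD and 0.494 to 1.28 under ADV.

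**Figure D4:**
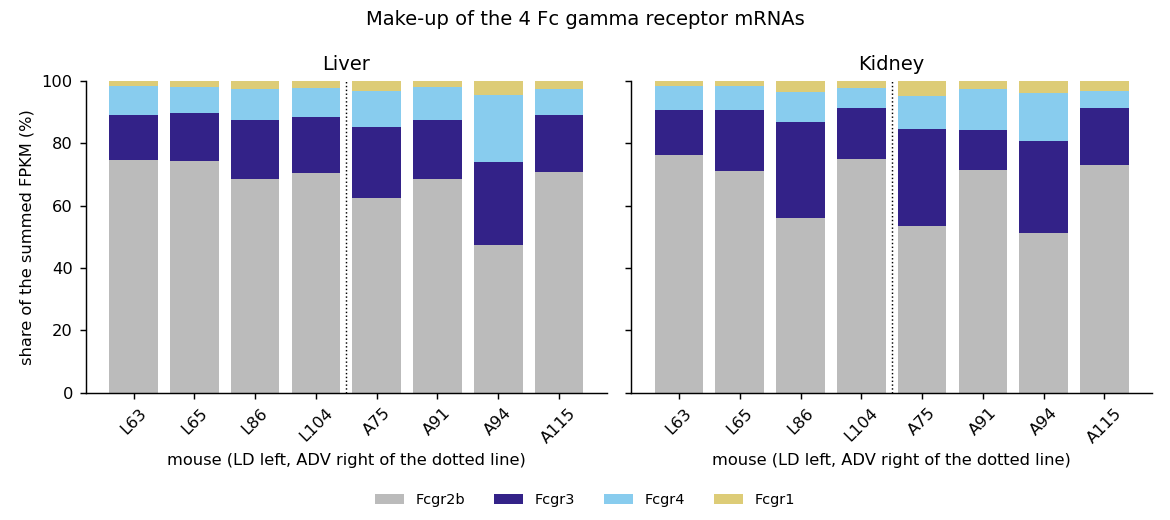
Share of each Fc gamma receptor in the summed FPKM of the 4 receptors, in percent, for each mouse in liver (left) and kidney (right). Fcgr2b makes up 47.3% in the liver of A94 and 68.5 to 74.7% in the LD livers; in the kidney its share is lowest in A94, A75 and L86.

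Set against the macrophage marker sum of the same library, 8 of the 9 genes spanned a narrower fold range between livers than their levels did, Fcgr2b being the exception. Cybb was 1.30 to 1.58% of that sum in the LD livers and 1.47 to 1.60% in the ADV livers, and Fcer1g was 3.21 to 4.20% and 3.34 to 4.61%. Fcgr2b was 12.1 to 15.6% of the macrophage sum in the LD livers and 5.21 to 11.8% in the ADV livers, with A94 the lowest. The sinusoidal and other endothelial markers, 10 in number, summed to 86.4 to 96.4 FPKM in the LD livers and to 93.5 to 125 FPKM in the ADV livers. A115 was the highest, and A94 stood at 103 FPKM. Much of this sum was Clec4g, at 40.9 to 43.6 FPKM under LD, 30.1 FPKM in A94 and 59.8 FPKM in A115. A94 was the highest of the 8 mice for 4 of the 10 markers (Lyve1, Pecam1, Cdh5 and Eng), whereas Stab1, Stab2, Clec4g, Oit3 and Kdr peaked in A115. In the kidney the macrophage sum of A115 was the lowest of the 8, and 7 of the 9 genes reached their highest share of it in that mouse, from 66.4% for Fcgr2b to 1.89% for Ncf4. That library departed from the other kidneys by GC content, and the part of GC content in these shares was not tested. Fcer1g was 12.7 to 18.5% of the kidney sum under LD and 7.19 to 12.7% under ADV. Its highest ADV share lay just below its lowest LD share, and the other genes overlapped in the kidney.

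Across the 8 mice, the level in the liver was set against the level in the kidney of the same mouse, on the log2(FPKM + 0.1) scale, for each of the 9 genes. Fcgr1 had Pearson's r = 0.90 (permutation p = 3.5e-04, Benjamini-Hochberg adjusted over the 9 genes p = 0.0031) and Spearman's rho = 0.95 (permutation p = 0.0011, adjusted p = 0.010). Its r was 0.93 when L63 and A94, the 2 mice with liver levels farthest from the median, were left out, and 0.92 without A94 alone. Ncf1 (r = 0.96, adjusted permutation p = 0.018), Fcgr4 (r = 0.92, adjusted permutation p = 0.014), Fcgr2b (r = 0.90, adjusted permutation p = 0.035) and Fcgr3 (r = 0.82, adjusted permutation p = 0.031) also passed with Pearson's r but not with Spearman's rho, whose adjusted permutation p was 0.066 for Ncf1, Fcgr4 and Fcgr3 and 0.104 for Fcgr2b. Without the 2 farthest mice these r values were 0.88, 0.72, 0.60 and 0.63. Cybb (r = 0.85), Ncf4 (r = 0.84), Fcer1g (r = 0.62) and Cyba (r = 0.32) did not pass, and without the 2 farthest mice their r was 0.30, 0.33, -0.65 and 0.25, so the relation of Fcer1g rested on A75 and A94. By the unadjusted exact permutation p of Pearson's r, 5 of the 9 genes had a positive r with p under 0.05, against 6.23% of the 12319 genes tested in both organs, and 3 of the 9 did without A94, against 3.27%. Without A94 only Fcgr1 kept an adjusted permutation p under 0.05. Each condition held 4 mice, too few for a correlation within it. The r over all mice therefore also holds any difference between the conditions that both organs share.

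**Figure D5:**
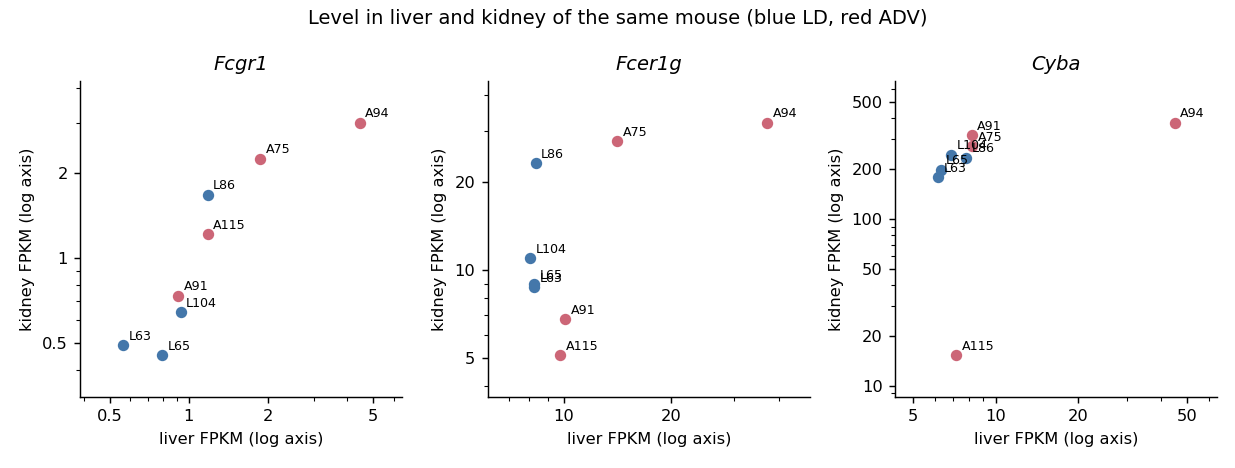
FPKM in the kidney against FPKM in the liver of the same mouse, both on log axes, for Fcgr1, Fcer1g and Cyba (blue, LD; red, ADV). Fcgr1 ranks the mice in nearly the same order in both organs (rho = 0.95), whereas A115 lies apart for Cyba at 15.3 FPKM in the kidney.

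The genes most like Fcer1g and Cybb across the 8 mice of an organ were named by Pearson's r of log2(FPKM + 0.1), as an ordering only. In the liver, where the points shared the high values of A94, the 5 genes nearest to Cybb were Clec4f, a lectin of Kupffer cells (r = 0.999), Evi2b, Csf1r, the receptor that keeps macrophages alive (r = 0.996), Nckap1l and Irgm2, with Clec4f and Csf1r also on the macrophage list, and Ncf4 ranked 12th of 12732 genes. The 5 nearest to Fcer1g were Itm2c, Adap1, Atp8a1, Plac8 and Ly86 (r from 0.993 to 0.995), and Fcgr4 ranked 26th. In the kidney the nearest to Cybb were Cd84, Dtx3l, Clec7a, Sh3kbp1 and Grap2 (r from 0.986 to 0.997), with Fcgr2b and Ncf1 at ranks 50 and 51 of 14339. The nearest to Fcer1g in the kidney were Il6ra, Milr1, Champ1, Rgs19 and Sh3pxd2b (r from 0.972 to 0.990). By the smaller of the r values in both organs, the genes near to Fcer1g included Clec4n (0.954), Sh3bgrl3, Pik3r5 and Ifngr2 (0.945), and Clec4a3, Cd84, Trim30a, Wipf1 and Postn were nearest to Cybb (0.968 to 0.979). Cyba was added as a reference after its values were seen. In the kidney its nearest genes were Ftl1, Hint1, Polg, Tmem134 and Tmem256 (r above 0.999), across points that share the low level of A115, and the best ranked of the other 8 was Fcer1g at 7256 of 14339.

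Of 25 genes that signal below Fc receptors, 24 were tested in the liver and 23 had a log2 fold change above 0, with a median of 0.69 (0.20 without A94), and 0 had an adjusted p under 0.05 with limma. At an unadjusted p under 0.05, 1 was higher (background 8.65%) and 1 lower. The number higher was 0 when any 1 LD-conditioned mouse was left out, 3 without A94 (background 8.80%) and 9 without A91 (background 13.4%). The kinase Syk, which docks on the phosphorylated gamma chain, measured 0.802 to 1.08 FPKM in the LD livers and 1.24, 0.838, 7.29 and 0.916 FPKM in A75, A91, A94 and A115. By size the leading 3 in the liver were the phospholipase Plcg2 (log2 fold change 1.07), the adaptor Lat2 (1.02) and the kinase Btk (0.95). In the kidney 21 of 25 had a log2 fold change above 0, and 12 of 24 without A94. Their median was 0.36, and 0.0012 without A94. In that organ 0 passed the adjusted test and 1 was higher at an unadjusted p under 0.05 (background 1.75%). The number higher was 5 without A91 (background 4.27%) and 10 without A115 (background 29.5%). The leading 3 in the kidney were Btk (1.46), Lat2 (1.15) and Lat (0.99). Inpp5d, the phosphatase recruited by Fcgr2b, ranged from 0.504 to 0.793 FPKM in the LD livers and from 0.643 to 3.53 FPKM in the ADV livers.

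Of 17 other NADPH oxidase genes, 8 were tested in the liver, where 7 had a log2 fold change above 0, and 9 in the kidney, where again 7 did, and 0 passed the adjusted test with limma in either organ (0 also at an unadjusted p under 0.05). The leading 3 were Rac2, the GTPase of the phagocyte oxidase (log2 fold change 0.97), Prkcb (0.83) and Arhgdib (0.82) in the liver, and Rac2 (1.19), Vav1 (0.75) and Prkcb (0.75) in the kidney. Rac2 measured 1.59 to 2.33 FPKM in the LD livers, 2.08 to 2.78 FPKM in A75, A91 and A115 and 15.2 FPKM in A94. Nox4, the oxidase of kidney tubules, which also pairs with Cyba, measured 153 to 204 FPKM in the LD kidneys and 66.1, 140.4, 111.7 and 214.9 FPKM in the ADV kidneys (log2 fold change -0.61, adjusted p = 0.9999 with limma). Its value in A115 lay above all LD kidneys, where that of Cyba lay below them.

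Of 12 other Fc receptors, 6 were tested in the liver (5 above 0) and 9 in the kidney (7 above 0), and 0 passed the adjusted test with limma in either organ. Without A94 fewer passed the filter, and the counts above 0 were 2 of 3 and 1 of 5. Trim21, a cytosolic antibody receptor, was the 1 gene higher in the liver at an unadjusted p under 0.05, with a log2 fold change of 0.51 (SE 0.15, adjusted p = 0.321 with limma). Fcgrt, the neonatal receptor that recycles IgG, measured 71.1 to 78.6 FPKM in the LD livers and 62.9 to 71.2 FPKM in the ADV livers (log2 fold change -0.10, adjusted p = 0.598). In the kidney of A115 Fcgrt stood at 10.05 FPKM against 62.7 to 114.5 FPKM in the other 7 kidneys. The leading 3 were the B cell genes Fcmr (1.34), Fcrla (1.05) and Fcrl1 (0.91) in the liver and Fcrla (1.21), Fcmr (0.95) and Fcrl1 (0.88) in the kidney, with A94 the highest in each. Of the immunoglobulin chains, only Jchain was analysed here, which links IgA and IgM into polymers. It measured 3.06 to 8.40 FPKM in the LD livers and 9.90, 15.5, 600.1 and 3.21 FPKM in A75, A91, A94 and A115.

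Among the marker lists of cells that carry these genes, 0 markers had an adjusted p under 0.05 with limma in either organ. Of the 14 macrophage markers tested in the liver, 8 were higher at an unadjusted p under 0.05 (4 without L63 and 4 without L65), beside 8.65% of all genes tested, and the 3 of largest size were the haemoglobin scavenger receptor Cd163 (log2 fold change 1.29), Csf1r (0.96) and the complement receptor Vsig4 (0.89). The list median was 0.80, and 0.41 without A94, close to the 0.87 and 0.42 of the 9 genes. In the kidney 9 of 10 macrophage markers had a log2 fold change above 0, led by Cd5l (1.61), Mrc1 (1.19) and C1qc (0.99), and the median was 0.86, or 0.33 without A94. All 10 monocyte markers were above 0 in both organs, led by Ly6c2 (2.06), F13a1 (1.93) and Chil3 (1.79) in the liver and by Chil3 (3.05), Itgam (1.09) and F13a1 (1.02) in the kidney. Several of these sizes rested on A94, where Ly6c2 stood at 22.3 FPKM in the liver (the other ADV livers 0.750 to 0.841 FPKM) and Chil3 at 46.1 FPKM in the kidney (the other ADV kidneys 0.037 to 0.889 FPKM), and the value of Chil3 depends on the pseudocount, since 2 LD kidneys were at 0.

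In the liver 8 of 9 neutrophil markers, 4 of 5 dendritic cell markers, 6 of 6 B cell markers, 3 of 4 plasma cell markers, 6 of 6 T cell markers, 3 of 3 NK cell markers and 1 of 1 mast cell marker tested had a log2 fold change above 0. Of all genes tested, 65.7% were above 0 in the liver and 46.4% in the kidney. Without A94 the neutrophil median turned from 0.58 to -0.20. In the kidney the counts were 4 of 4, 6 of 8, 6 of 7, 4 of 4, 8 of 8, 3 of 4 and 1 of 2, and the medians of the dendritic, B, plasma and NK cell lists turned from above to below 0 without A94. Endothelial markers were above 0 in 8 of 10 cases in the liver (median 0.20) and 6 of 7 in the kidney (median 0.070). The kidney count was 2 of 7 without A75 and 3 of 7 without A94. Hepatocyte markers were above 0 in 3 of 8 cases in the liver. In the kidney the counts were 0 of 7 for the proximal tubule and 3 of 8 for the distal nephron and podocyte, and both rested on A115, being 4 of 7 and 8 of 8 without it. Red blood cell markers were above 0 in 3 of 4 cases in the liver and 5 of 5 in the kidney, and in 1 of 4 and 2 of 5 without A94.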

How the data were processed

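The authors extracted RNA with TRIzol and RNeasy columns, made stranded poly(A) libraries sequenced in read pairs, removed adaptors (Trimmomatic), aligned to mm10 (STAR, 2.5.4b in the submitters' processing notes), dropped alignments of low mapping quality and counted exons of UCSC genes with Homer. The deposited values are FPKM, each library divided by its own total. Values times exon length and total fell in steps of 0.5 fragment for 100% of the values, and each read of a pair had counted 0.5 fragment.

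Here log2(FPKM + 0.1) of genes with a mean above 0.5 CPM was fitted with limma 3.58.1 (R 4.3.3, eBayes with trend), ADV against LD within each organ, and over all 16 libraries for the organ and interaction terms. P-values were adjusted by Benjamini-Hochberg over all genes tested. Single genes were tested by exact two-sided permutation over the 70 assignments of 4 of 8 mice (scipy 1.17.1). The fits were tested on simulated data. Fold changes of low genes are understated by the pseudocount. FPKM intervals were not computed, and 1 fragment at 1 kb of exon equals 0.038 to 0.058 FPKM.

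Titles carry the number of the mouse, so that liver and kidney of a number come from the same animal. Across 12319 genes, deviations from the group means correlated between liver and kidney of a mouse at -0.024 to 0.553, above 0.1 in 5 of 8 mice, and 6 of 8 livers matched their own kidney best. The mouse as a replicate block was an alternative, as were other pseudocounts, filters, scalings, limma-voom and leaving out mice.

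The 9 genes and the lists (other Fc receptors, immunoglobulin chains, Fc receptor signalling, other NADPH oxidase genes and cell type markers) were chosen with earlier results of these data known. Text names all 9 genes, the 3 genes of each gene list with the largest change per organ, and the genes nearest to Fcer1g and Cybb, of which 1 is not reported here. Syk, Inpp5d, Nox4 and Fcgrt were named for their roles, and Trim21 for its p, after values were seen. Promoters are from RefSeq (GRCm38.p6), transcripts from GENCODE.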

Additional observations from a re-analysis of the deposited data

Results flagged for a closer look

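Of 36 groups of 4 mice (9 genes, 2 organs, 2 conditions), 12 held a mouse farther from the others than the Dixon criterion allows. The criterion was applied to FPKM and not to the log2 scale of the fits, and its count depends on that scale. Its chance level of about 1 in 20 holds for normally distributed values, which was not tested here. In the ADV livers A94 was the mouse in 6, with Fcgr4 at 21.6 FPKM (the others 4.19 to 6.30 FPKM), Fcer1g at 37.2 FPKM (9.77 to 14.1 FPKM), Cybb at 14.5 FPKM (3.93 to 4.63 FPKM), Cyba at 45 FPKM (7.18 to 8.20 FPKM), Ncf1 at 8.88 FPKM (1.56 to 2.54 FPKM) and Ncf4 at 4.51 FPKM (0.932 to 1 FPKM).

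In the LD kidneys L86 was the mouse in the other 6, with Fcgr1 at 1.67 FPKM (the others 0.452 to 0.640 FPKM), Fcgr3 at 14.5 FPKM (4.46 to 5.87 FPKM), Fcgr4 at 4.56 FPKM (1.97 to 2.39 FPKM), Fcer1g at 23.3 FPKM (8.76 to 11 FPKM), Ncf1 at 2.08 FPKM (0.881 to 1.02 FPKM) and Ncf4 at 1.35 FPKM (0.446 to 0.592 FPKM). The macrophage marker sum was also highest in L86 among the LD kidneys, at 125.8 FPKM against 57.7 to 72.6 FPKM. The genes of 1 mouse are not independent, so these are 2 patterns rather than 12. Their causes were not tested.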

How the results depend on the processing

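In the liver the log2 fold changes of the 9 genes were above 0 in all 189 alternative fits and 0 passed the adjusted test. In the kidney 184 of 189 kept their sign and 1 passed, so that leaving out 1 mouse gave 0 to 1 gene called. The exceptions were Fcer1g, whose log2 fold change ran from -0.26 to 0.61 as each mouse was left out and was -0.21 with A94 left out and scaling by median ratio, and Cyba, which ran from -0.94 to 0.60 and was 0.40 with A115 left out and scaling by median ratio. The median over the 9 ran from 0.42 to 1.08 in the liver and from 0.19 to 0.94 in the kidney as each mouse was left out. The log2 ratio of activating to inhibitory receptors differed between the conditions by 0.32 to 0.80 in the liver and by 0.24 to 0.77 in the kidney as each mouse was left out.

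Between the organs the count of genes called depended on the scaling. It was 7 with median ratios (65.6% of all genes), 8 with quantile normalization (63.2%), 1, Cyba, with mitochondrial genes left out (79.3%), 7 and 8 with median ratios and A115 (75.2%) or A94 (66.4%) left out, 4 with the mouse as a fixed replicate block and 2 with it as a random block (76.3% each) and 2 to 3 as each mouse was left out. The log2 difference of Fcer1g, kidney minus liver, was 0.17, and -0.60 with median ratios, -0.38 with quantile normalization, -0.54 and -0.59 with median ratios and A115 or A94 left out, and -0.020 to 0.29 as each mouse was left out. That of Ncf4 was 0.021, and -0.67, -1.12, -0.69 and -0.73 under the same settings and -0.16 to 0.21 as each mouse was left out. That of Cybb was -0.13, and 0.0047 with mitochondrial genes left out. The replicate block changed no call of ADV against LD, where 0 genes were called with it in either organ.

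Of the 9 relations between liver and kidney, 5 passed with all mice after adjustment over the 9, 1 without A94 and 0 without the 2 mice farthest from the median, where r of Fcer1g was -0.65. With 4 mice a group the exact permutation p cannot go below 0.029, and Ncf4 rested on as few as 11 fragments in a library, which limits the precision of its values. The provider of each library was not given, so its part cannot be told apart.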
